A study of Homo sapiens with 6 samples.

Results

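The genes described are 10 of the 58174 genes in the table: the mucins MUC1, MUC5AC, MUC6, MUC13 and MUC20, the trefoil factors TFF1, TFF2 and TFF3, and the secretory genes AGR2 and GKN1. They were chosen by name, as mucins, trefoil factors and gastric secretory genes, with earlier results of these data known. All 10 were found. RNA was sequenced from cells labelled AGS, a line established from a gastric adenocarcinoma of a human donor, to ask how their transcripts differ when FTO, an enzyme that removes methyl groups from adenosine in RNA, is depleted. The control group, si-NC, held 3 libraries of cells given a control siRNA, and the si-FTO group held 3 libraries of cells given siRNA against FTO. In the genotype field, the labels give si-NC as wild type and si-FTO as FTO-/-, which does not match an siRNA treatment, and the group means do not settle it. Since markers of other cell types also differ between the groups, as given with the marker lists, an effect of FTO depletion and a difference between the cells under the labels cannot be told apart, and every ratio here describes the libraries labelled si-FTO and si-NC. Each level is the authors' mean TPM of a group, TPM being a gene's portion of all transcripts after correction for transcript length. No spread between libraries could therefore be given and no test was run, and the depth is unknown because TPM keeps none.

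The stomach is covered by a gel of secreted mucins, mainly MUC5AC from surface cells and MUC6 from gland cells, while membrane-bound mucins such as MUC1 coat the cell surface itself. Trefoil factors are small secreted proteins stored and released with these mucins, and AGR2 is a chaperone of the endoplasmic reticulum that helps mucins fold. Gastric tumours often lose or rearrange this pattern, so the genes serve as markers of how far a gastric cell keeps its secretory identity.

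FTO itself had a mean of 33.1 TPM in si-NC against 7.27 TPM in si-FTO. On the scale used throughout, the log2 ratio of si-FTO to si-NC after adding 1 TPM to each mean, this is -2.05. The direction is that of the labels. The added 1 TPM makes the ratio of low genes smaller than the ratio of the means themselves.

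Among the 10 genes, MUC1 was the only one with more than 1 TPM in both groups, AGR2 reached that level in si-FTO only, and the other 8 stayed under 0.5 TPM in both. Genes were compared where the mean was at least 0.5 TPM in at least 1 group, which 20493 genes and 2 of the 10 passed. Both of these, MUC1 and AGR2, were higher in si-FTO by a log2 ratio of at least 1, and 0 of the 10 were lower. Of all genes compared, 11.4% were higher by this rule and 17% were lower, with a median log2 ratio of -0.20. The excess of lower genes was small once the groups were scaled to each other, with 2786 higher and 2885 lower by median-ratio scaling and 2803 and 2902 by quantile normalization, against 2340 and 3492 as deposited. AGR2 passed the minimum only through the group in which it was high, so it had to differ, and the count of 2 supports no statement about the 10. The same limit holds for every list of genes given here: among all genes, 876 of the 2340 higher and 1656 of the 3492 lower ones were under 0.5 TPM in the other group and passed only through the group where they were high, so list counts and medians are descriptions. Of 19634 protein-coding genes in the table, 27.8% were under 0.5 TPM in both groups, against 8 of these 10. In bulk RNA, fewer cells that express a gene and less RNA in each cell cannot be told apart.

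**Figure D1:**
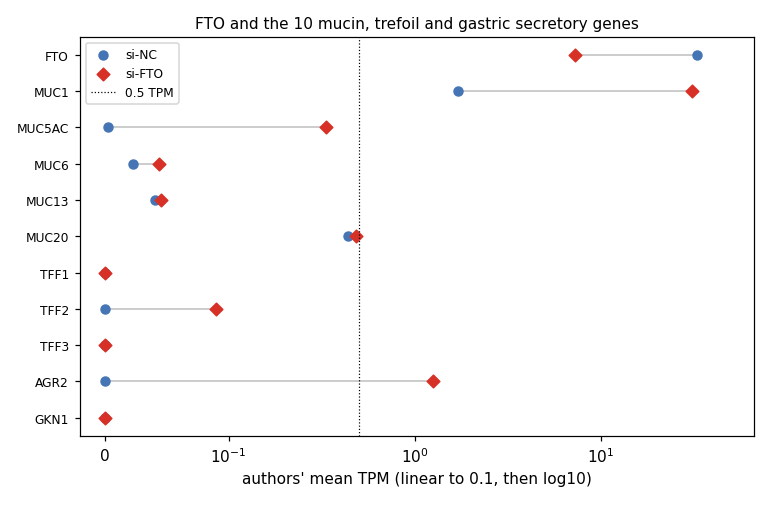
Authors' mean TPM of FTO and the 10 genes in si-NC (blue circles) and si-FTO (red diamonds), on an axis that is linear to 0.1 TPM and logarithmic above it, with a dotted line at 0.5 TPM. MUC1 moves from 1.71 to 31.0 TPM, and TFF1, TFF3 and GKN1 lie at 0 in both groups, where the red symbol covers the blue one.

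MUC1 encodes a membrane-bound mucin of the apical cell surface whose cytoplasmic tail takes part in signalling. It lies on chr1:155158300-155162707 of GRCh37, on the minus strand. Its mean was 1.71 TPM in si-NC against 31.0 TPM in si-FTO, which is 18.2-fold higher and a log2 ratio of 3.57. MUC1 thereby moved from a level exceeded by 12230 protein-coding genes in si-NC to one exceeded by 4786 in si-FTO. Of the 2340 genes higher in si-FTO, 340 had a larger log2 ratio, so MUC1 stood in the upper part of that set without being at its top. MUC1 made up 77.2% of the summed TPM of the 10 genes in si-NC (2.21 TPM) and 93.2% in si-FTO (33.3 TPM). Under the other scalings and pseudocounts tried, its log2 ratio lay between 3.73 and 4.19.

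AGR2, a member of the protein disulfide isomerase family found in mucus-secreting cells, lies on chr7:16831435-16873057 on the minus strand. It was listed at 0 in si-NC and had a mean of 1.26 TPM in si-FTO, or a log2 ratio of 1.17. No fold is given against a group listed at 0. The si-FTO level was low in itself, with 11742 protein-coding genes above it, and 1968 of the higher genes had a larger log2 ratio. The ratio depends on the pseudocount, since the si-NC mean is 0: with 0.1 TPM added the log2 ratio was 3.76, and with none and 0 as 0.0001 TPM it was 13.62. The 12 subunit genes of RNA polymerase II, which every cell uses, were looked up after the values were seen. Of these, 0 were listed at 0, and the lowest mean was 16.9 TPM. All were far more abundant than AGR2, so they cannot show whether its 0 in si-NC means no RNA or RNA that was missed.

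The promoters of MUC1 and AGR2 are shown because these are the genes past the fold. The RefSeq promoter table, of build GRCh38.p14, held 4 of the 10 genes (MUC1, MUC13, AGR2 and GKN1), and MUC5AC, MUC6, MUC20, TFF1, TFF2 and TFF3 had no entry. The 250 bases before the start are printed 5′ to 3′ on the gene's strand, and each had 1 full match in GRCh37. The MUC1 window lies on chr1:155162707-155162956, minus strand, upstream of the gene except for 1 base in an annotated MUC1 exon. The AGR2 window lies on chr7:16844624-16844873, minus strand, inside the annotated span of AGR2 and in none of the annotated exons. In the MUC1 window, capitals mark the GC box, spelled GGGCGG, as well as a TATA box, spelled TATAAA. In the AGR2 window they mark the core of GATA factor motifs, spelled AGATAA.
MUC1: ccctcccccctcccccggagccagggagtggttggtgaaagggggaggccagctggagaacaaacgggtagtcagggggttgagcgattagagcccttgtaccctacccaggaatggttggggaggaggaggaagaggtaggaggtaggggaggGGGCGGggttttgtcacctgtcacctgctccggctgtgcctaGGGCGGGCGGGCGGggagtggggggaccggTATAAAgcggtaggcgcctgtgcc
AGR2: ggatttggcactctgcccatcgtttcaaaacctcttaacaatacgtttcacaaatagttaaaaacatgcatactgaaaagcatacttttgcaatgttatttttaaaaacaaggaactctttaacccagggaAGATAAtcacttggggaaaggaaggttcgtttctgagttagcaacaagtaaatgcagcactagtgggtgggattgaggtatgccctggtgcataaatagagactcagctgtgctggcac

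The windows differ in composition, with 66% G and C in MUC1 and 40.4% in AGR2. The MUC1 window holds 4 matches to GGGCGG, of which 3 overlap, and 1 match to TATAAA that begins 24 bases before the start. GGGCGG occurs on either strand in 42.3% of the 27305 promoter windows of that length, 1 per gene, and TATAAA in 11.1%. The AGR2 window holds neither, and has 1 match to AGATAA, found in 9.37% of windows. The other motifs searched on both strands were CACGTG (6.49% of windows), CCAAT (33%) and CCGGAA (14.8%), which occurred in none of the 4 windows. The MUC13 and GKN1 windows held none of the 6 motifs. The motifs were chosen after the expression values were seen, and a match is a description of the letters only.

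MUC1 is known for a tandem repeat in its extracellular part, which carries the sugar chains. In GRCh37 a repeat with a period of 60 bases, each unit at least 90% identical to the next, runs over 491 bases at chr1:155161140-155161630, which is 8.18 copies. The first unit on the gene's strand, at chr1:155161571-155161630, is printed to show its composition of 80% G and C.
MUC1 repeat unit: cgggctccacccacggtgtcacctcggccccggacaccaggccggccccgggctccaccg
In the annotation lifted to GRCh37, 0 of the 491 bases lie in an annotated MUC1 exon. The longest annotated MUC1 transcript has 1811 bases, and 0% of its words of 50 bases occur a second time in it or in transcripts of another gene. Since the annotated exons leave the repeat out, this share does not describe a MUC1 message that holds it. An unnamed protein-coding gene overlaps MUC1 on the same strand and had 3.70 TPM in si-NC against 0.820 TPM in si-FTO. The RSEM program named in the paper divides ambiguous reads between genes by estimation, so the MUC1 level is uncertain to the extent that reads fell in the overlap.

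The gel-forming mucins of the stomach were near 0 in both groups. MUC5AC, the surface mucin, had 0.00251 TPM in si-NC against 0.334 TPM in si-FTO. MUC6, the gland mucin, had 0.0229 and 0.0440 TPM. These levels are too low to pass the minimum, and the large ratio of the MUC5AC means, 133-fold, rests on a si-NC mean close to 0. The longest annotated MUC5AC transcript in the lifted annotation has 4012 bases, and 2.88% of its words of 50 bases recur within it. For MUC6 the length is 8016 bases and the share 1.76%. These figures describe the annotated transcripts, which were not checked for completeness, and not the full messages. The low means are uncertain to the extent that the annotation used for TPM left parts of these genes out.

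Both genes lie in a cluster of gel-forming mucins on chromosome 11, MUC6 on chr11:1012823-1036718 (minus strand) and MUC5AC on chr11:1151580-1222364 (plus strand). MUC5B, a gel-forming mucin best known from airways and salivary glands, starts 92.7 kb from the start of MUC5AC. It had 0.0321 TPM in si-NC against 5.39 TPM in si-FTO, or a log2 ratio of 2.63, so in si-FTO the mucin with the highest level in the cluster was not one of the 2 gastric ones. MUC2, the intestinal mucin of the same cluster, was listed at 0 in si-NC and had 0.383 TPM in si-FTO; it is named after its values were seen. Of the 18 other protein-coding genes within 500 kb of MUC5B that passed the minimum, 1 was higher, 2 were lower and the median log2 ratio was -0.21.

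The membrane mucins MUC13 and MUC20 had almost equal means in the groups. MUC13, abundant in normal gut epithelium, had 0.0406 TPM in si-NC against 0.0454 TPM in si-FTO. MUC20, which binds the receptor MET, had 0.438 and 0.481 TPM, just under the minimum, and passed it within the fold under either scaling, with log2 ratios of 0.11 and 0.24. The MUC20 value is uncertain, since 34.6% of the words of 50 bases in its longest transcript also occur in transcripts of other genes, most often the pseudogene MUC20P1. A non-coding gene on the same strand, MUC20-OT1, also overlaps it and had 20.0 and 20.1 TPM. Thus MUC1 differed between the groups while the other membrane mucins among the 10 were low in both.

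The trefoil factors were at or near 0. TFF1, which accompanies MUC5AC in surface cells, and TFF3, the trefoil factor of goblet cells, were listed at 0 in both groups. TFF2, which accompanies MUC6 in mucous neck and gland cells, was listed at 0 in si-NC and had 0.0895 TPM in si-FTO. GKN1, a gastrokine secreted by surface mucous cells and commonly lost in gastric cancer, was also listed at 0 in both groups. Being at 0 in both groups, as TFF1, TFF3 and GKN1 were, is true of 12.9% of protein-coding genes in the table. The longest annotated transcript of each trefoil factor, of AGR2 and of GKN1 shared 0% of its words of 50 bases with other genes.

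The genes next to the members on the chromosomes were mostly within the fold, and more of the others were higher than lower. Taking the 2 nearest compared genes on each side of each member gave 29 different genes. Of these, 11 were higher, 2 were lower and 16 were within the fold, with a median log2 ratio of 0.41. Among all genes compared, 11.4% were higher and 17% lower, with a median of -0.20. Of the higher neighbours, TMPRSS3, LINC01983, LINC02688, MUC5B and an unnamed gene beside AGR2 passed only through si-FTO. The difference from all genes was not tested. Beside the trefoil factors on chromosome 21, the serine protease gene TMPRSS3 was listed at 0 in si-NC and had 29.7 TPM in si-FTO, and the cholesterol transporter gene ABCG1 had 2.78 and 11.3 TPM, while ZBTB21 (6.47 and 5.60 TPM) and RSPH1 (0.207 and 0.726 TPM) were within the fold. TFF1, TFF2 and TFF3 were thus at or near 0 with both higher and within-fold genes beside them. Beside MUC13, the integrin gene ITGB5 (27.2 and 127.5 TPM) and HEG1 (11.99 and 49.1 TPM) were higher, UMPS (28.5 and 24.6 TPM) and SLC12A8 (2.20 and 0.706 TPM) were within the fold, and MUC13 was low in both groups. Beside MUC20, the pseudogene SDHAP2 was lower (5.47 and 0.0573 TPM), the non-coding LINC01983 was listed at 0 in si-NC with 3.72 TPM in si-FTO, and MIR570 (7.84 and 3.99 TPM) and TNK2 (36.5 and 21.2 TPM) were within the fold.

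Beside MUC6 and MUC5AC, the non-coding LINC02688 had 0.00307 TPM in si-NC with 3.23 TPM in si-FTO and was higher, as was MUC5B, and AP2A2 (63.7 and 49.4 TPM), CHID1 (81.1 and 51.8 TPM) and TOLLIP (19.5 and 16.2 TPM) were within the fold. Beside GKN1, ANTXR1 was higher (18.2 and 60.9 TPM), and APLF (0.760 and 0.279 TPM), FBXO48 (1.95 and 0.569 TPM) and GFPT1 (13.6 and 19.04 TPM) were within the fold. GKN1 itself was at 0 in both groups.

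Around MUC1 the picture was mixed. TRIM46 had 2.64 TPM in si-NC against 0.223 TPM in si-FTO, the antisense RNA THBS3-AS1 had 2.47 and 9.24 TPM, and KRTCAP2 (243.7 and 238.9 TPM) and THBS3 (10.3 and 15.9 TPM) were within the fold. Of 33 compared protein-coding genes within 500 kb of MUC1, 7 were higher and 2 lower, with a median log2 ratio of 0.21. Around AGR2, the dioxin receptor gene AHR had 4.62 and 10.6 TPM, while TSPAN13 had 30.5 and 34.1 TPM, and the unnamed genes among the nearest had 0.373 and 0.828 TPM (within the fold) and 0.276 and 1.95 TPM (higher). AGR3, the closest relative of AGR2 and its neighbour, named after its values were seen, was listed at 0 in both groups. Of 5 compared protein-coding genes within 500 kb of AGR2, 1 was higher (AHR) and 1 lower, with a median log2 ratio of 0.15. The lower one, the secreted signalling inhibitor gene SOSTDC1, also named after its values were seen, had 5.36 TPM in si-NC and was listed at 0 in si-FTO.

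**Figure D2:**
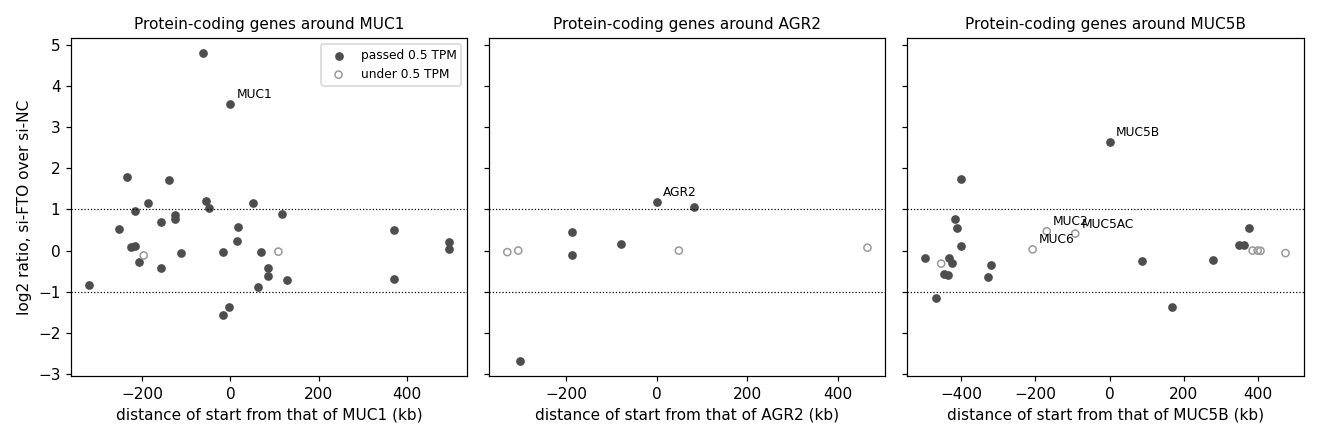
Log2 ratio of si-FTO to si-NC (mean TPM plus 1) of protein-coding genes against the distance of their start from that of MUC1, AGR2 or MUC5B in kb; filled points passed 0.5 TPM in at least 1 group, open ones did not, and dotted lines mark -1 and 1. Distances use the outermost annotated start of each gene. MUC1 at 3.57 and MUC5B at 2.63 stand above most of their neighbours, and MUC6, MUC2 and MUC5AC are under the minimum.

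Among 17 other mucins and mucin-type proteins, 5 passed the minimum, 2 were higher and 1 was lower, with a median log2 ratio of 0.29. All 3 passed only through the group where they were high, so the counts support nothing about mucins as a family. The higher ones were MUC5B and MUC16, the membrane mucin known as the tumour marker CA-125, which was listed at 0 in si-NC and had 6.62 TPM in si-FTO. MUC3A, a membrane mucin of the intestine, was lower, with 2.22 TPM in si-NC against 0.333 TPM in si-FTO, and is named after its values were seen. The most abundant of them, the sialomucin CD164, had 92.5 and 83.9 TPM. MUC1, at 31.0 TPM, thus had the second highest mean in si-FTO among the mucins listed, after CD164.

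Of 20 other genes of the gastric mucosa, including pepsinogens, gastric lipase, the proton pump and gastric hormones, 17 were under the minimum in both groups, as MUC5AC, the trefoil factors and GKN1 were. The other 3 passed it, and 1 of these was higher, passing only through si-FTO. That gene was PSCA, a surface protein of gastric and urothelial epithelium, with 0.196 TPM in si-NC against 52.4 TPM in si-FTO. CLDN18, whose gastric isoform seals junctions in the stomach, had 0.627 and 0.759 TPM. The summed level of the 20 genes was 1.68 TPM in si-NC against 53.4 TPM in si-FTO, nearly all of it PSCA.

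Mucins are only functional once sugar chains have been added, a step begun by the GALNT enzymes in the Golgi. Of 33 genes of this pathway, enzymes apart from the chaperone C1GALT1C1, 24 passed the minimum, 2 were higher and 9 were lower, 6 of these passing only through si-NC, with a median log2 ratio of -0.79. The higher ones were the most abundant, GALNT2 (96.9 TPM in si-NC, 285.9 TPM in si-FTO), and GALNT6 (14.8 and 63.3 TPM). The lower ones with the largest log2 ratios were GALNT14 (22.7 TPM, listed at 0 in si-FTO), GALNT18 (17.2 and 0.0159 TPM), GALNT13 (11.3 TPM, listed at 0 in si-FTO) and GALNT16 (12.2 and 0.159 TPM). GALNT2 and GALNT6 thus had the higher mean in si-FTO, as MUC1 did, and the named lower enzymes in si-NC. C1GALT1, which lengthens many of these chains, had 6.91 and 7.16 TPM, and its chaperone C1GALT1C1 had 5.25 and 6.59 TPM. Both are named after their values were seen. With a pseudocount of 0.1 TPM the counts were 4 higher and 14 lower.

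**Figure D3:**
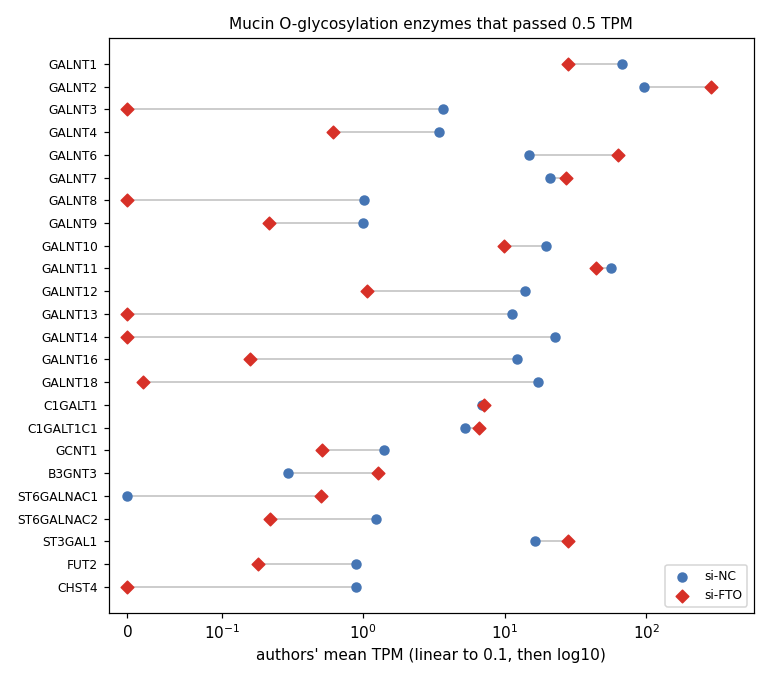
Authors' mean TPM of the 24 compared genes of mucin O-glycosylation in si-NC (blue circles) and si-FTO (red diamonds), on an axis that is linear to 0.1 TPM and logarithmic above it. GALNT2 is the most abundant in both groups, and GALNT13 and GALNT14 lie at 0 in si-FTO.

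AGR2 acts beside other protein disulfide isomerases, most of which are general to secretory cells. Of 18 relatives, 15 passed the minimum, 1 was higher and 1 lower, with a median log2 ratio of -0.06. TXNDC5 was higher, with 31.5 TPM in si-NC against 75.6 TPM in si-FTO, PDIA2, named after its values were seen, had 4.95 TPM and was listed at 0, and the most abundant, P4HB, had 398 and 490.04 TPM. The higher AGR2 mean was thus not accompanied by a change past the fold in 13 of the 15 relatives compared.

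Of 17 regulators of mucous, gastric and other secretory cells, mostly transcription factors, 14 passed the minimum, 4 were higher (2 passing only through si-FTO), 6 lower (4 only through si-NC, and 4 lower in all under either scaling) and 4 within the fold, with a median log2 ratio of 0.34. ELF3, an epithelial ETS factor, had 0.115 TPM in si-NC against 93.3 TPM in si-FTO, CREB3L4 had 11.4 and 30.6 TPM, and FOXA1 had 8.24 and 19.5 TPM. GATA4 and SOX2, factors of foregut and gastric development, had 36.96 and 13.2 TPM in si-NC and were listed at 0 in si-FTO. GATA6 had 20.3 and 2.54 TPM, and ERN1, a sensor of protein folding stress, had 7.35 and 3.07 TPM. The log2 ratio of ERN1, -1.04, came within the fold under either scaling, at -0.86 by median-ratio scaling and -0.74 by quantile normalization. XBP1, the most abundant, had 123.3 and 179.8 TPM. MUC1 and AGR2 were thus higher in the group in which GATA4, GATA6 and SOX2 were lower.

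Of 15 genes found for proteins that accompany mucins in mucus, 6 passed the minimum, 4 were higher and 0 lower, with a median log2 ratio of 2.77. With a pseudocount of 0.1 TPM the counts were 5 higher and 1 lower. SLPI, LCN2 and ZG16B passed only through si-FTO, where they were high, as AGR2 did, so these counts support no statement about the list. The protease inhibitor SLPI had 0.0729 TPM in si-NC against 345.3 TPM in si-FTO. LGALS3, a lectin that binds mucin sugars, had 8.37 and 235.6 TPM, and the iron-sequestering LCN2 was listed at 0 in si-NC and had 9.31 TPM in si-FTO. WFDC2, another protease inhibitor gene, had 0.734 TPM in si-NC and was listed at 0 in si-FTO, and is named, like ZG16B, after its values were seen. SLPI, LGALS3 and LCN2, like MUC1, are products of many kinds of glandular epithelium, and are not particular to the stomach.

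**Figure D4:**
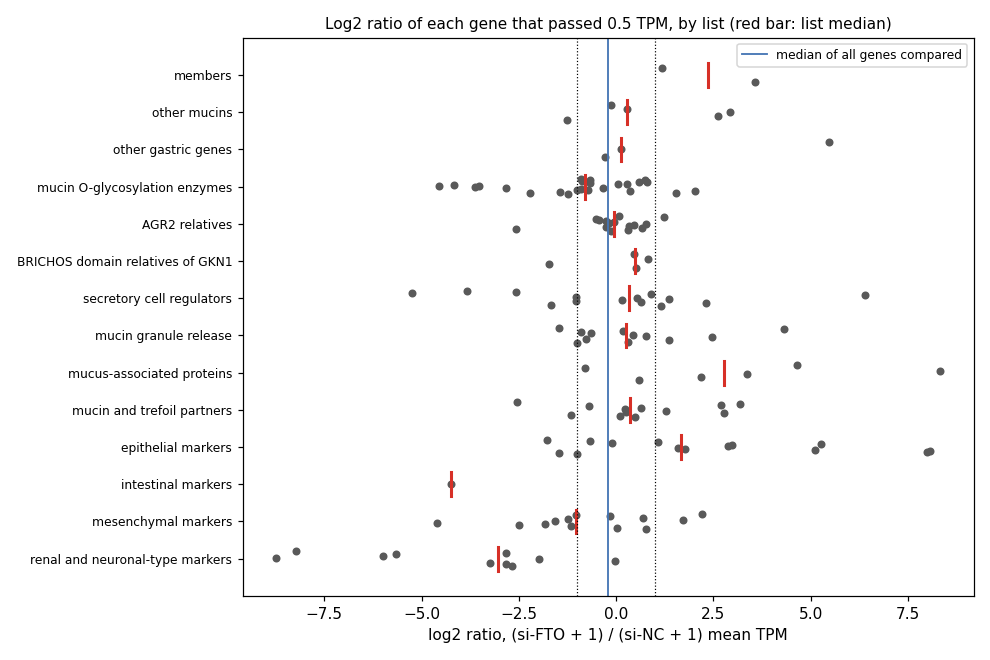
Log2 ratio of si-FTO to si-NC (mean TPM plus 1) of each gene that passed 0.5 TPM, by gene list, with the list median as a red bar, the median of all genes compared (-0.20) as a blue line and dotted lines at -1 and 1. The 2 compared members lie above 1, and the renal and neuronal-type markers lie mostly below -1.

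Markers of cell types were examined beside MUC1 and AGR2. Of 20 epithelial markers 14 passed the minimum, 9 were higher (5 passing only through si-FTO) and 2 lower (1 only through si-NC), with a median log2 ratio of 1.68 and a summed level of 77.7 TPM in si-NC against 5334 TPM in si-FTO. With a pseudocount of 0.1 TPM the counts were 9 higher and 4 lower, and at a minimum of 5 TPM they were 6 and 0. The keratin gene KRT8 had 10.8 and 3139 TPM, KRT18, the most abundant marker in si-NC, had 52.1 and 1851 TPM, KRT7 was listed at 0 in si-NC and had 252.8 TPM in si-FTO, and the protease gene ST14 had 0.0376 and 39.3 TPM. KRT7, KRT19 and KRT20 were at 0 in si-NC, and ESRP1, GRHL2 and OVOL1 in si-FTO. The junction gene CDH1 and the adhesion gene EPCAM, which are defining markers and are named after their values were seen, were low in both groups, CDH1 with 3.67 and 0.685 TPM and EPCAM with 1.22 and 0.113 TPM. The epithelial markers were therefore not of 1 direction, and the part of cell type in the MUC1 and AGR2 values was not tested.

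Of 15 renal and neuronal-type markers 10 passed the minimum, 0 were higher and 9 lower, all 9 passing only through si-NC, with a median log2 ratio of -3.04 and a summed level of 913.1 TPM in si-NC against 37.2 TPM in si-FTO. IRS4, the most abundant in si-NC, had 426.9 TPM, NEFL 62.7 TPM and NEFM 49.9 TPM, and each was listed at 0 in si-FTO, while UCHL1 had 302.9 and 0.0204 TPM. SIX2, the most abundant in si-FTO, had 37.3 and 36.4 TPM. At 0 in si-FTO were PAX2, EYA1, IRS4, NEFL, NEFM, STMN2, DCX and ELAVL4, and at 0 in si-NC were PAX8, CDH16, STMN2 and DCX. The part of these markers in the low MUC1 level of si-NC was not tested.

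**Figure D5:**
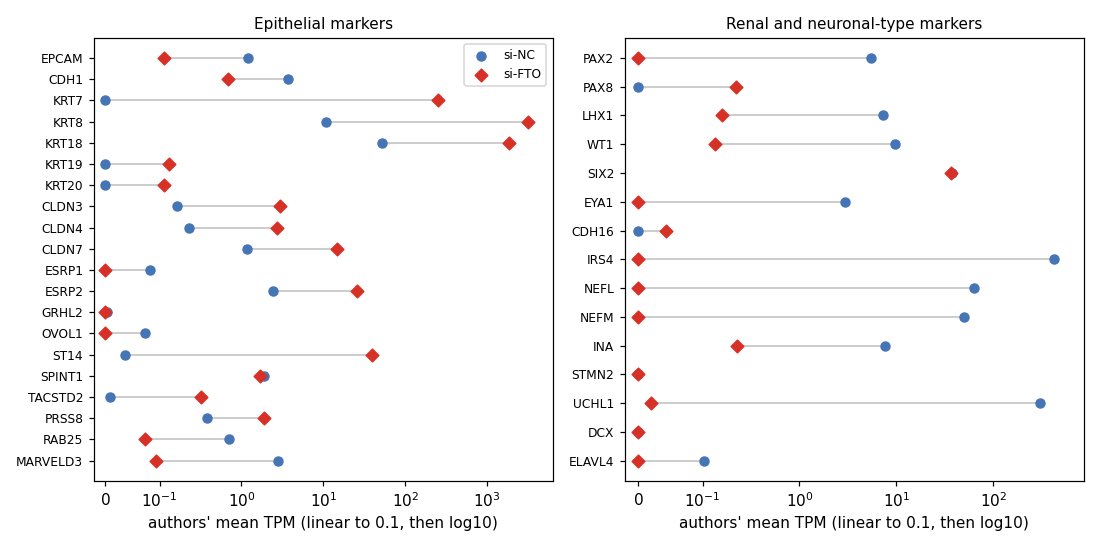
Authors' mean TPM of the epithelial markers (left) and the renal and neuronal-type markers (right) in si-NC (blue circles) and si-FTO (red diamonds), on axes that are linear to 0.1 TPM and logarithmic above it. KRT8 reaches 3139 TPM in si-FTO, and IRS4, at 426.9 TPM in si-NC, lies at 0 in si-FTO.

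Of 15 mesenchymal markers 13 passed the minimum, 2 were higher (1 passing only through si-FTO) and 7 lower (2 only through si-NC, and 4 lower in all under quantile normalization), with a median log2 ratio of -1.02 and a summed level of 631.3 TPM in si-NC against 834.8 TPM in si-FTO. VIM, the most abundant in both groups, had 439.9 and 752 TPM, whereas CDH2 had 53.7 and 1.25 TPM, SNAI2 52.5 and 8.55 TPM, TWIST1 17.6 and 4.24 TPM, and FN1 27.7 and 8.74 TPM. COL1A1 (10.3 and 36.4 TPM) and PDGFRB (0.370 and 5.34 TPM) were the higher ones, and COL1A2 and PDGFRA were at 0 in si-FTO. Of 10 intestinal markers 1 passed the minimum, CDX2, an intestinal transcription factor with 18.1 TPM in si-NC, the most abundant there, and listed at 0 in si-FTO. The list summed to 18.1 TPM in si-NC against 0.0411 TPM in si-FTO, all of the latter LGALS4, which was at 0 in si-NC. CDH17 and FABP2 had 0.00634 and 0.0137 TPM in si-NC and were at 0 in si-FTO. VIL1, FABP1, SI, CDX1, APOA4 and GUCA2A were at 0 in both groups. TFF3, the trefoil factor of intestinal goblet cells, was likewise at 0 in both groups. The part of these markers in the results was not tested.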

How the data were processed

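Per the paper, the authors mapped reads to hg19 with Bowtie and quantified them with RSEM; the submitters' processing notes name HISAT2 instead. The library kit was stranded, but whether counting used strand is not given in the sources used here. The values deposited by the authors are TPM, averaged over each group; the same table also holds their own comparison (log2 fold change, p-value, q-value), which was not used. A planned limma fit was not possible on means. A value of 0.0001 TPM was read as 0. The log2 ratio used a pseudocount of 1 TPM, a minimum of 0.5 TPM in at least 1 group and a threshold of 1 in size. Symbols matched 55726 of 58174 identifiers; 1 listed gene, LYPD8, was not found. The members and the 13 other lists were chosen with earlier results of these data known. Named genes were FTO, the members, the most abundant gene of each list per group, up to 4 per direction past the threshold with at least 5 TPM, and the 2 nearest compared genes on each side. Markers of cell types listed at 0 in a group were also named, and, like any gene outside this rule, were picked after their values were seen. With 2 means, likeness of patterns was not measured. Where RefSeq gave 2 MUC1 promoters, the first was used. Sequences and coordinates came from GRCh37 with the lifted GENCODE annotation. Python 3.11.15, numpy 2.4.6, pandas 2.3.3 and matplotlib 3.10.9 were used. The code for the calls was run on simulated means, with 5 TPM added to each si-NC mean and large changes put in. That run checks the code only, and says nothing about calls at low means or near the threshold.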

Additional observations from a re-analysis of the deposited data

How the results depend on the processing

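No paired analysis was possible because the table holds 1 mean per group. Leaving out each library, the replicate block and limma were not run for the same reason. The unknown depth and the unknown spread between libraries limit every value, those under 0.5 TPM most.

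MUC1 stayed past the threshold under all 8 alternatives run, with log2 ratios from 3.57 to 4.19, and FTO with -2.19 to -1.85. The 2 members higher became 1 at a minimum of 5 TPM, which leaves out AGR2 by construction, and 1 at a log2 ratio of at least 2. Without a pseudocount and without a filter together (0 as 0.0001 TPM), an alternative chosen after seeing the data, 4 members were higher, with MUC5AC and TFF2 added. No member was lower in any of these settings. Of all genes, 2340 higher and 3492 lower became 976 and 1241 at a log2 ratio of at least 2, and 7501 and 12118 with neither pseudocount nor filter. The lower genes were 2254 at a minimum of 5 TPM and 5348 without a pseudocount alone. Fewer or more genes enter these counts by construction. The groups were offset by a median of -0.21 (log2), which median-ratio scaling takes out. Of the 26 counts of the other lists, those that moved by over 1.5 times numbered 1 under median-ratio scaling, 3 under quantile normalization, 5 with a pseudocount of 0.1, 5 at a minimum of 5 TPM, 6 without a pseudocount, 11 at a log2 ratio of at least 2, 0 without a filter, and 16 with neither pseudocount nor filter.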

Other observations

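Of 13 genes for the release of mucin granules, 12 passed the minimum, 3 were higher (1 passing only through si-FTO) and 2 lower in si-FTO (1 only through si-NC, and 1 lower in all under either scaling), with a median log2 ratio of 0.25. UNC13D, a priming factor for granule fusion, had 0.233 TPM in si-NC against 23.5 TPM in si-FTO, the SNARE gene VAMP8 had 33.1 and 187.1 TPM, and RAB27A, which tethers granules, had 3.84 and 11.3 TPM. MARCKS, which links mucin granules to the cytoskeleton, had 82.9 and 29.4 TPM.

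Of 14 reported partners and receptors of mucins and trefoil factors, 12 passed the minimum, 4 were higher and 2 lower (1 only through si-NC, and 1 lower in all under quantile normalization), with a median log2 ratio of 0.36. CXCR4, a reported receptor of TFF2, had 8.13 TPM in si-NC against 81.7 TPM in si-FTO. EGFR and JUP, whose proteins bind the MUC1 tail, had 6.46 and 50.1 TPM and 55.4 and 367.8 TPM, and CTNNB1, another partner of that tail, had 320.7 and 197.5 TPM. MET, the partner of MUC20, had 33.9 and 83.3 TPM. F2RL1, a protease-activated receptor, had 16.6 and 2.03 TPM. Of the 8 relatives of GKN1 with a BRICHOS domain, 4 passed the minimum, 0 were higher and 1 lower, with a median log2 ratio of 0.50, and the lower one, ITM2C, was the most abundant, with 139.4 and 41.5 TPM. With a pseudocount of 0.1 TPM the counts were 1 higher and 1 lower.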
